A study of Saccharomyces cerevisiae with 4 samples.

Results

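The small subunit processome is the large nucleolar particle in which the precursor of the small ribosomal subunit (40S) is folded, modified and cut. Its genes were followed here on 4 spotted 2-colour arrays of the budding yeast Saccharomyces cerevisiae. The 52 genes were taken by symbol from a list of assembly factors of the 40S subunit, and each matched 1 of the 6212 rows of the deposited table by its locus tag. Every array gave the ratio of 2 total RNA samples. On 2 arrays, reg1 cells given 16 mM KOH for 10 min, which brought the medium to about pH 8.0, were set against reg1 cells given 16 mM KCl for 10 min in medium that began at about pH 5.5. On the other 2 arrays, untreated reg1 cells were set against untreated wild-type cells. All cells were of the strain labelled DBY4741 and grew at 28 °C in rich glucose medium (YPD). The reg1 cells carried reg1::KanMX, and both RNA samples of the alkali arrays came from them, so those arrays say nothing of wild-type cells under alkali. Whether the 2 experiments used separate cultures or clones is not stated in the labels, so the p-values below cover the spread of these hybridisations alone, and that spread may be technical.

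Ribosomal RNA is transcribed in the nucleolus as 1 long precursor, and assembly factors bind it while it is made. The UtpA complex binds the start of the precursor first, UtpB and the U3 small nucleolar RNA with its proteins follow, and the Mpp10 complex, helicases, a GTPase and nucleases then act on the folded particle. Genes for these factors form a large part of the ribosome biogenesis regulon of yeast, which is known for its strong expression in rapid growth on glucose and for its fall in many stresses. REG1 encodes the subunit that directs the phosphatase Glc7 in glucose repression.

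Values are log2 ratios, so that -1 means a level 2-fold lower. A gene was called where limma's adjusted p was under 0.05 over all genes measured on both arrays of a comparison. REG1 itself was at -1.10 and -0.96 in reg1 over wild type, the direction that the labels give (mean -1.03 ± 0.10, SD, n = 2, adjusted p = 0.0320). That is only about 2-fold lower in cells that carried reg1::KanMX, and why REG1 was not lower was not tested. The alkali arrays did not measure REG1, and there KOH over KCl is the likely direction, judged by sample titles and channel order. Read that way, ENA1, a sodium pump gene known for its induction by alkali, was the highest of all genes tested, at 7.4, and with the direction turned round every sign given below for KOH would turn with it. The mutant columns are displaced by 2 rows from YKL011C to the end of the table and were read at the corrected position for the 25 members there. There, rows with missing mutant values matched those with missing alkali values at r = 0.75 after the correction and 0.04 before it. Another 26 members lay where the columns keep their names. UTP20 lay in a part that is not settled and was left out of all counts, except in the alternative fit of the table as deposited.

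After 10 min of KOH nearly all measured processome genes were lower in reg1 cells, and several were among the lowest genes of the arrays. Of the 39 members measured on both alkali arrays 34 fell, PWP2 passed the test as higher, and UTP22, IMP3, BMS1 and NOP1 did not pass. Among all 4521 genes tested, 32.6% were called lower and 29% higher. The members' median log2 ratio was -1.81, a level 3.51-fold lower, against a median of -0.09 for all genes tested. Both arrays put 36 of the 39 below 0, as for 49.5% of all genes. On both arrays, 30 of the 39 were at least 2-fold lower, against 13.3% of all genes. Each ratio compares shares of the labelled RNA of whole cultures, so a small change in all cells and a large one in some of them cannot be told apart. The members' means covered a wide range, with 10 members below -3, 6 between -3 and -2, 14 between -2 and -1, 7 between -1 and 0, and 2 above 0. Only 25 of the 4521 genes had a mean below -3, so 10 of those 25 were processome genes. The 2 alkali arrays gave the members in nearly the same order (Pearson r = 0.91 across the 39 genes, a description, since genes are not independent replicates), and the median SD between arrays was 0.16.

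**Figure D1:**
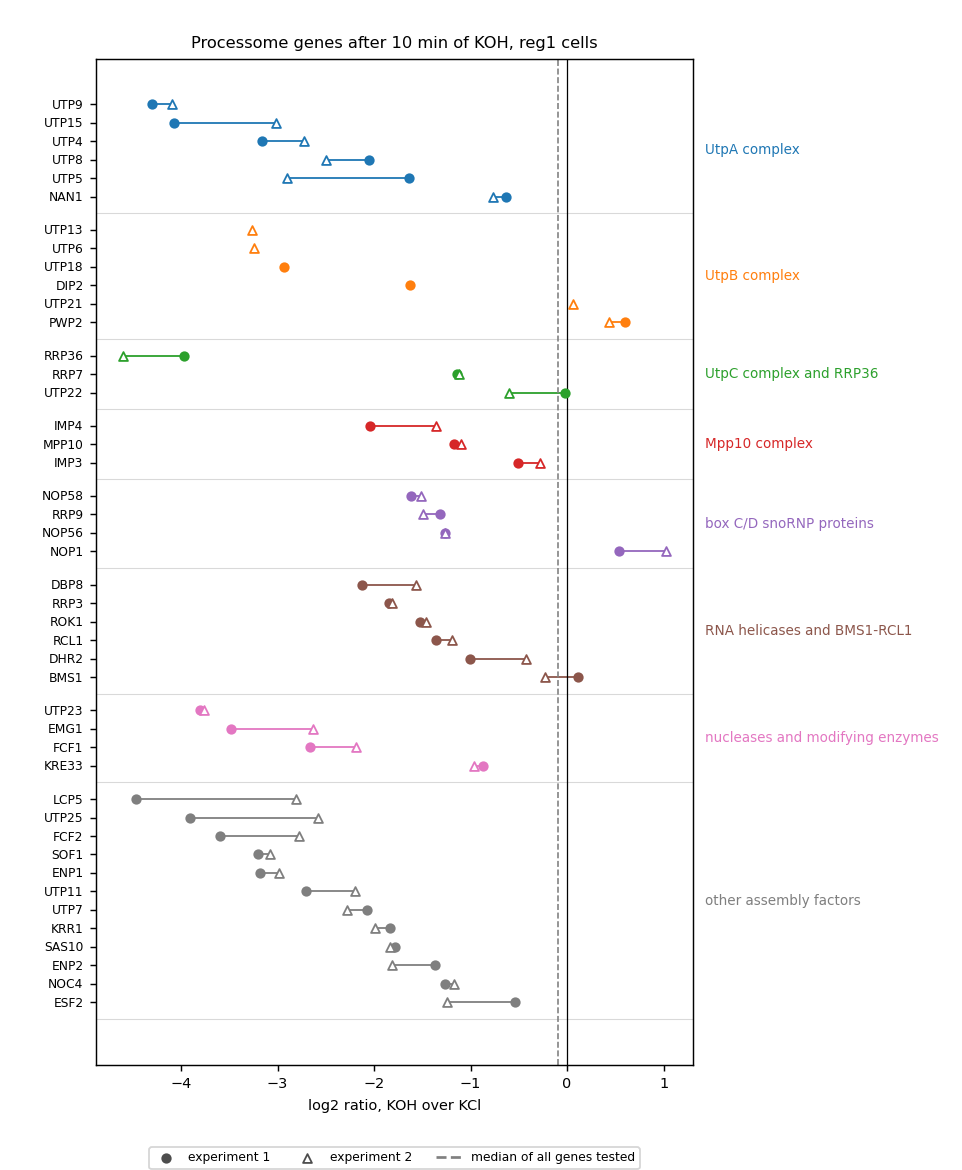
Log2 ratio of KOH over KCl in reg1 cells (horizontal axis) for each processome gene with a value, by role; the filled circle is experiment 1, the open triangle experiment 2, and the dashed line the median of all genes tested (-0.09). Nearly all points lie left of 0, RRP36, UTP9, UTP23 and LCP5 farthest, while NOP1 and PWP2 lie right of it on both arrays.

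The UtpA complex, which binds the nascent precursor and is needed for its transcription, had 6 of its 7 genes measured on both arrays, and all 6 fell. UTP9 was at -4.30 and -4.10, a mean of -4.20 ± 0.14 (SD, n = 2) and a level 18.4-fold lower after KOH (adjusted p = 0.00018, limma). UTP15 was at -4.07 and -3.02. UTP4, which encodes a protein built of WD40 repeats, was at -3.16 and -2.73. These 3 genes were far below the median of all genes on both arrays. UTP8 (-2.05 and -2.50) and UTP5 (-1.64 and -2.90) fell as well, and the arrays differed more for UTP5 than for UTP8. The smallest decrease was that of NAN1, also known as UTP17, at -0.63 and -0.77 (mean -0.70 ± 0.10, SD, n = 2, adjusted p = 0.0102). Without alkali experiment 1 NAN1 had an adjusted p of 0.0997, and without experiment 2 one of 0.143. In this and every later fit without an alkali array, the 1 that is left is assumed to vary like the mutant arrays, which alone give the spread. UTP10, the longest UtpA gene, was measured on no array.

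UtpB, which joins after UtpA and is made mainly of WD40-repeat proteins, was poorly covered under alkali. Of its 6 genes 5 had a value on 1 alkali array only and were not tested in the main fit. UTP13 was at -3.27 on experiment 2, and UTP6 at -3.25 on experiment 2. UTP18 was at -2.93 on experiment 1, and DIP2 at -1.63 on experiment 1. UTP21 stood apart at 0.06 on experiment 2. With 1 value each, the spread of these ratios is unknown, and none of the 5 is called.

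PWP2, also known as UTP1, was the UtpB gene measured on both arrays, at 0.60 and 0.43 in the row of its locus tag YCR057C. Its mean of 0.52 ± 0.12 (SD, n = 2) passed as higher with an adjusted p of 0.0470. The annotation gives 2 further row names, YCR055C and YCR058C, as synonyms of this gene, and both rows disagree with the first. YCR055C was at -1.99 and YCR058C at -1.08 on experiment 2, and neither had a value on experiment 1. In reg1 over wild type the 3 rows lay close together, with -0.33, -0.53 and -0.60 on experiment 1 and 0.16, 0.18 and 0.20 on experiment 2. The direction of PWP2 after KOH therefore depends on which of its 3 rows is read. Without alkali experiment 1 its adjusted p was 0.340, and without experiment 2 it was 0.189. These rows were looked up after their values were seen.

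Next to these, UTP22 and RRP7 belong to UtpC, a complex with casein kinase 2 subunits, and Rrp36 is an early factor that works with it. RRP36 was the lowest of all genes tested, at -3.97 and -4.60, a level 19.5-fold lower (mean -4.29 ± 0.45, SD, n = 2, adjusted p = 0.000152). RRP7 was at -1.14 and -1.12, 2.19-fold lower. UTP22 was at -0.02 and -0.60 and did not pass (adjusted p = 0.196). The 3 genes of this group thus lay far apart.

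Of the Mpp10 complex, which helps U3 to pair with the precursor, IMP4 fell most, with -2.04 and -1.36 on the 2 arrays. MPP10 was at -1.17 and -1.10 (adjusted p = 0.00449, and 0.0628 without alkali experiment 1). IMP3 was at -0.51 and -0.28 and did not pass (0.232). With the spread taken from the alkali arrays alone, which is also the fit without mutant experiment 1 or 2, IMP3 passed as lower (0.0387).

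The proteins of box C/D small nucleolar RNPs, to which U3 belongs, did not move together. NOP58 (-1.62 and -1.51) and NOP56 (-1.27 on both arrays), the paired scaffold proteins, fell by similar amounts. RRP9, a WD40 protein particular to U3, was at -1.32 and -1.49 and fell too. NOP1, the yeast fibrillarin and the methyltransferase of the same particles, was at 0.54 and 1.02 (mean 0.78 ± 0.34, SD, n = 2) and was the highest of the 39 members. It did not pass in the main fit (adjusted p = 0.0873). It did with the spread of the alkali arrays alone (0.0130), with the experiment number as a block (0.0390) and with a dye term (0.00055). With the dye term the members' adjusted p followed the size of the mean alone, whatever the gap between arrays. LCP5, at -4.47 and -2.81, had 7.43e-62 there.

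Among the enzymes that remodel the particle, 5 of 6 measured genes fell. The DEAD-box helicase genes DBP8 (-2.13 and -1.57), RRP3 (-1.85 and -1.81) and ROK1 (-1.53 and -1.46) were 2.82-fold to 3.61-fold lower. RCL1, which encodes a cyclase-like protein brought in by the GTPase Bms1, was at -1.36 and -1.19 (adjusted p = 0.00413, and 0.0596 without alkali experiment 1). DHR2, a DEAH-box helicase gene, was at -1.01 and -0.43 (0.0214, and 0.302 without experiment 1). BMS1 itself stood at 0.11 and -0.23, with an adjusted p of 0.773. ECM16, the gene of the helicase that releases U3, had no value on the alkali arrays.

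All 4 genes of nucleases and RNA-modifying enzymes fell. UTP23, which encodes a PIN-domain protein, was at -3.80 and -3.76, a level 13.7-fold lower with little spread (mean -3.78 ± 0.03, SD, n = 2, adjusted p = 0.000145). FCF1, also known as UTP24 and the gene of the related PIN-domain nuclease, was at -2.67 and -2.19. EMG1, which encodes a pseudouridine methyltransferase, was at -3.48 and -2.63. The gene of the RNA acetyltransferase, KRE33, was least affected, at -0.87 and -0.96 (adjusted p = 0.00316, with 0.0546 and 0.0636 without alkali experiment 1 and 2).

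The remaining assembly factors had 12 of 18 genes measured on both alkali arrays, and all 12 fell. LCP5 was lowest, at -4.47 and -2.81, and was also the member whose arrays differed most (mean -3.64 ± 1.17, SD, n = 2, adjusted p = 0.00082). UTP25 (-3.91 and -2.58) showed the next largest gap, followed by UTP5. FCF2, SOF1 and ENP1 had means of -3.19, -3.14 and -3.09, and of these SOF1 (-3.20 and -3.08) and ENP1 (-3.18 and -2.99) agreed closely between arrays. Enp1 is a factor that stays with the particle until late steps outside the nucleolus. The KH-domain gene KRR1, UTP7, UTP11, SAS10, ENP2 and NOC4 lay between -1.22 and -2.46. ESF2, whose product activates the helicase Dbp8, had the smallest decrease, at -0.54 and -1.25 (adjusted p = 0.0122, and 0.182 without alkali experiment 2). UTP14, UTP30, BFR2, RRP5 and ESF1 had no value on any array.

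UTP20, which encodes a very long scaffold protein, could not be placed. At its own name it had -1.20 and -1.56 on the alkali arrays and 0.18 and 0.13 on the mutant arrays. In that part of the table the 2 pairs of columns are 1 row apart, and which pair is displaced is not known. If the alkali columns are the displaced ones, its values are those of the next row, 1.85 and 1.06, and if the mutant columns are, those of the row before, -0.05 and -0.07. So the alkali direction of UTP20 is unsettled as well.

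Annotated gene length, which holds no untranslated regions, moved with the alkali ratio over the whole arrays. Spearman's rho between length and the KOH ratio was 0.33 across the 39 members and 0.50 across the 4272 tested genes with a length, a description without a test, since these genes share arrays and dyes. Up to 1000 bases the median log2 ratio was -2.17 for 12 members and -0.51 for all genes. From 1000 to 2000 bases it was -1.83 for 17 members and -0.09 for all genes. From 2000 to 3000 bases it was -1.59 for 7 members and 0.61 for all genes, and above that -0.31 for 3 members and 1.45 for all genes. The members' median was the lower one in each range. Of the 3 longest, KRE33 fell and UTP22 and BMS1 did not pass, and PWP2, with 2772 bases, came next in length.

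With each array's trend on length removed, an alternative chosen after seeing the data, 35 of 39 members were lower and 1 higher, against 24.9% and 25.2% of the 4272 genes. UTP22 (-1.64, adjusted p = 0.00035) and BMS1 (-1.33, adjusted p = 0.00081) then passed as lower, and PWP2 was at -0.37 (0.128). NOP1, a short gene, passed as higher at 1.11 (0.0226), IMP3 was at 0.21, and ESF2 no longer passed (-0.55, 0.0741). RRP36, UTP9 and UTP23 were at -3.92, -4.39 and -3.32. Thus the calls of several of the longest members depended on this choice, as did those of the short NOP1 and ESF2 and the sign of IMP3. The members with means below -3 all still passed as lower, but some moved. FCF2 went from -3.19 to -2.65 and UTP25 from -3.245 to -3.74. What part length has in the uncorrected ratios was not tested.

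**Figure D2:**
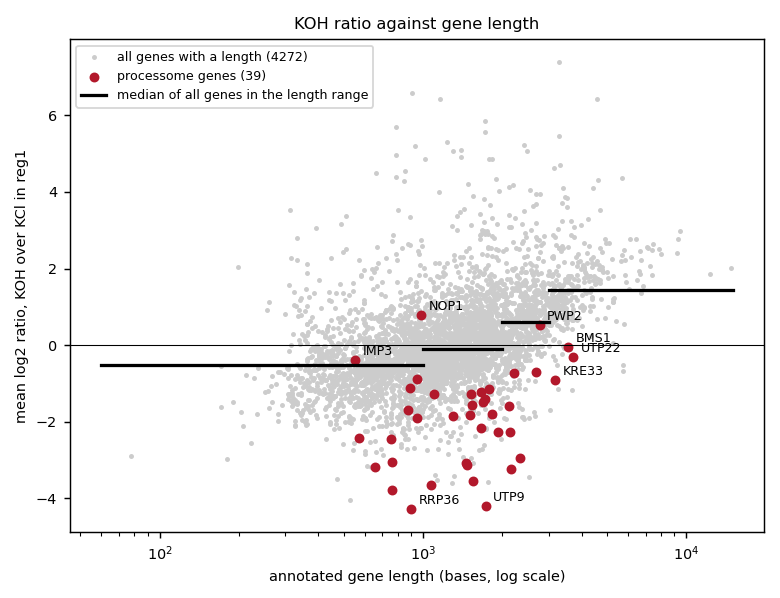
Mean log2 ratio of KOH over KCl in reg1 cells (vertical axis, n = 2 arrays) against annotated gene length in bases (log axis), for the 39 processome genes (red) and all genes with a length (grey); black lines are the medians of all genes in 4 length ranges. The medians run from -0.51 in the shortest range to 1.45 in the longest, and most processome genes lie below the line of their range, with NOP1 and IMP3 above it.

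In untreated reg1 cells the same genes differed little from wild type, and none was called. All 45 members measured on the mutant arrays had values on both arrays, and limma called none lower and none higher, against 1.83% and 5.08% of all 4702 genes. For 45 genes, no call is near those shares. At an unadjusted p under 0.05 there were 5 members, all lower, against 12.7% of all genes that were lower at that level. The members' median was -0.23, a level 1.17-fold lower, against -0.05 for all genes. Of the 45 means 37 were below 0, 82.2% against 55.3% of all genes. On both arrays 28 members were below 0, 62.2% against 34.5% of all genes. No member was 2-fold lower on both arrays, against 0.723% of all genes.

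**Figure D3:**
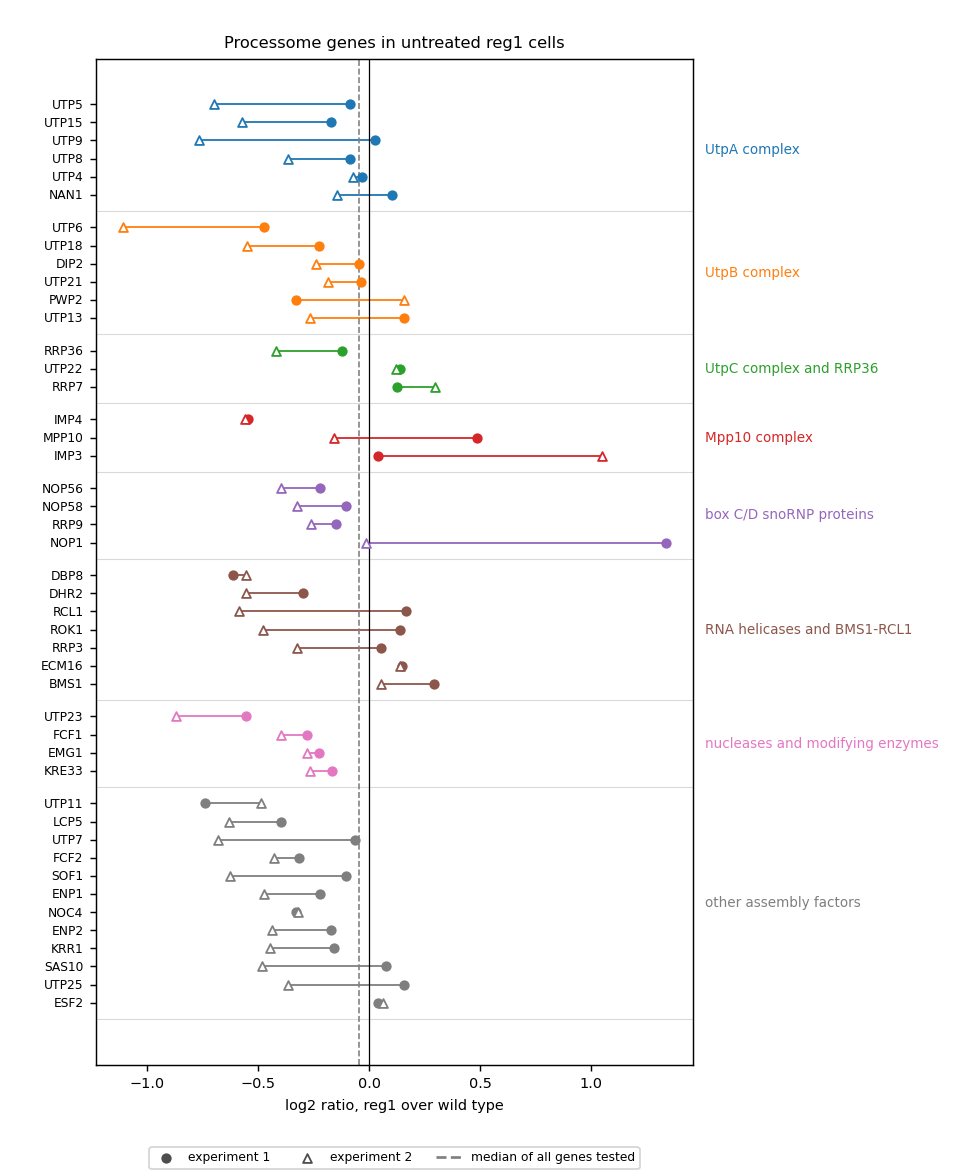
Log2 ratio of reg1 over wild type in untreated cells (horizontal axis) for the 45 processome genes with values, by role; the filled circle is experiment 1, the open triangle experiment 2, and the dashed line the median of all genes tested (-0.05). For 38 of the 45 genes the triangle lies left of the circle, and UTP6, UTP23, IMP3 and NOP1 hold the points farthest from 0.

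The lowest members were UTP6, UTP23 and UTP11. UTP6 was at -0.48 and -1.11, a mean of -0.79 ± 0.45 (SD, n = 2, adjusted p = 0.104, with the spread from the mutant arrays alone, since it has 1 alkali value). It passed with the experiment number as a block (0.0455). With a dye term, where the adjusted p followed the size of the mean alone, it passed too (0.00238). UTP23 was at -0.56 and -0.87 (mean -0.71 ± 0.22, adjusted p = 0.0559, and 0.177 with the spread of the mutant arrays alone). UTP11 was at -0.74 and -0.49 (0.111). DBP8 (-0.61 and -0.56) and IMP4 (-0.55 and -0.56), the other 2 with an unadjusted p under 0.05, had values that agreed closely between arrays. At the top, NOP1 was at 1.34 and -0.02, IMP3 at 0.04 and 1.05, and RRP7 at 0.13 and 0.30. NOP1 and IMP3 each rested on 1 array and were the 2 members whose arrays differed most, followed by UTP9 (0.03 and -0.77).

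The 2 mutant arrays did not place the members at the same level. Their median was -0.10 on experiment 1 and -0.40 on experiment 2, and 38 of 45 members were lower on experiment 2 than on experiment 1, against 55.6% of all genes. The dyes were swapped between these experiments. With a dye term in the fit UTP6, UTP23 (adjusted p = 0.00792), UTP11 (0.0274) and DBP8 (0.0387) passed as lower and NOP1 (0.0162) as higher. There 7.29% of all genes were called lower and 9.51% higher. In that fit the members' adjusted p again followed the size of the mean alone. NOP1 thus passed although its arrays lay at 1.34 and -0.02. After scaling to an equal spread, UTP23 (0.0368) and DBP8 (0.0489) passed as lower, against 3.66% of all genes. Dye and experiment number changed together between the 2 mutant arrays, so their parts in the gap cannot be told apart there. The part of the dye was not tested. By role, the median was -0.30 for UtpA, -0.13 for UtpB, 0.13 for UtpC with RRP36, 0.16 for the Mpp10 complex, -0.21 for the box C/D proteins, -0.17 for the helicases with BMS1 and RCL1, -0.30 for the nucleases and modifying enzymes and -0.34 for the other factors.

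The difference between the alkali ratio and the mutant ratio was tested directly for the 39 members measured on all 4 arrays. It was lower for 32 of them and higher for none, against 19.9% and 18% of 4257 genes. The largest differences were those of RRP36 (-4.01, adjusted p = 0.00161), UTP9 (-3.83, adjusted p = 0.00178) and UTP15 (-3.17). NAN1, UTP22, DHR2, BMS1, IMP3, NOP1 and PWP2 did not pass, with differences between -0.94 and 0.60. With the trend on length removed the count was 32 again, against 15.1% of all genes, but the genes were not all the same. NAN1 (limma adjusted p = 0.0043), UTP22 (0.0031) and BMS1 (0.0059) then passed as lower. IMP4 (0.0514), RCL1 (0.0564) and ESF2 (0.138) no longer passed. The count was 7 after every array was scaled to an equal spread, where the alkali ratios shrink by construction. No share of all genes is given for the scaled fit, so that count does not set the members apart. Fewer members passed with 1 alkali array left out.

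**Figure D4:**
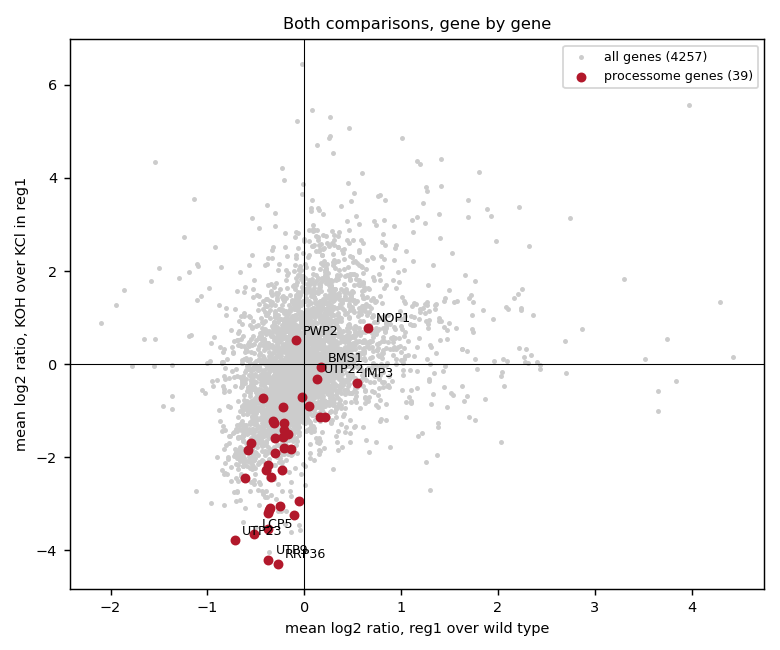
Mean log2 ratio of KOH over KCl in reg1 cells (vertical axis) against that of reg1 over wild type (horizontal axis), n = 2 arrays each, for 39 processome genes (red) and all 4257 genes measured on all 4 arrays (grey). The processome genes run from -4.29 to 0.78 vertically and from -0.71 to 0.66 horizontally, with NOP1 highest and farthest right.

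Other genes of the same pathway moved in the same direction after KOH. The counts that follow stand against 32.6% of all genes called lower and 29% called higher. Of 22 further early 40S factors 18 fell and 1 rose, with a median of -1.22, SLX9 lowest at -3.19 and SQS1, which encodes a helicase cofactor, at 1.06. With the trend on length removed SQS1 was at 0.46 and did not pass (adjusted p = 0.0872). Of 7 factors of late 40S maturation 5 fell and none rose, the median being -1.44 with LTV1 lowest at -2.31. The 60S assembly factors, 42 of 48 lower and 2 higher, had a median of -1.74. ALB1 (-4.04) was their lowest and REA1 (2.03) their highest. REA1, called higher in the main fit, is the longest of all these genes with 14733 bases. With the trend on length removed it turned to -1.27 and passed as lower (adjusted p = 0.0046, limma). NOP12, also called higher at 1.42, stayed higher there at 1.48. Cytosolic ribosomal protein genes, with 115 of 116 lower, had a median of -1.68 and ran from -2.99 to -0.42, a narrower range than the processome genes. With the trend on length removed, RPL29 (-1.78) and RPL41A (-1.17) stayed lower and RPL31B was at 0.10. RPS29A then passed as higher (0.69, adjusted p = 0.0132, limma). These genes were picked as the ends of the list in a comparison, and its median after that removal is not given. The annotated 691 bases of RPL31B are no multiple of 3, so that length is not of coding sequence alone. Differences between these lists were not tested. In reg1 over wild type the lists differed in order. The ribosomal protein genes had the lowest median, -0.55, with 11 of 118 lower, against 1.83% of all genes. The 60S assembly factors had -0.23 with none lower and 2 of 55 higher. That is near the 5.08% of all genes called higher and does not set them apart. Further early 40S factors had -0.13 and late ones -0.20 there, with no gene called among 24 and 7.

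**Figure D5:**
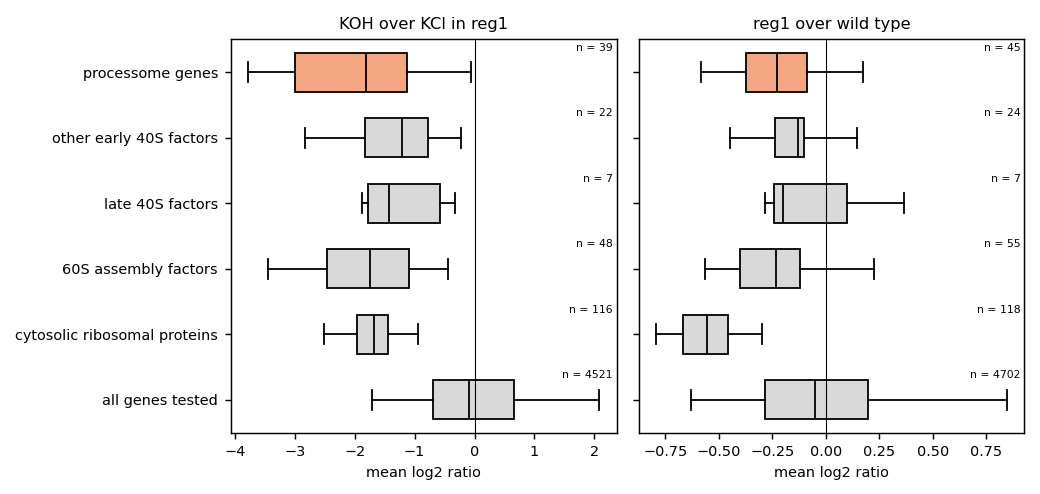
Mean log2 ratio (horizontal axes) in KOH over KCl in reg1 cells (left) and reg1 over wild type (right) for the processome genes, 4 other gene lists and all genes tested; boxes give the quartiles with the median, whiskers the central 90% of genes, and n the genes. On the left the 5 lists all have medians from -1.81 to -1.22, and on the right the ribosomal protein genes have the lowest median (-0.55).

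Several members are next to another assembly gene on the chromosome. The annotation gives 7 such pairs, looked up after values were seen, each of 1 processome gene and 1 factor of the 60S subunit. Both genes fell after KOH in LCP5 and NSA2 (-3.64 and -1.03), RRP3 and SSF1 (-1.83 and -2.48), DBP8 and NMD3 (-1.85 and -1.11), and NOC4 and RRP15 (-1.22 and -1.78). In the pair UTP9 and RIX1, read from the same strand, UTP9 was at -4.20 and RIX1 at -0.49, which did not pass (adjusted p = 0.153). Neighbours thus could lie far apart in level. In the other pairs, UTP13 with RSA3 and ESF2 with NOG2, 1 gene was not measured on both alkali arrays.

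Among known regulators of ribosome synthesis genes, 6 of 9 measured rose after KOH and 2 fell, against 29% and 32.6% of all genes. DOT6, which encodes a repressor that binds promoters of ribosome biogenesis genes, was at 1.49 and 1.73, 3.05-fold higher (adjusted p = 0.00059). The activator gene SFP1 (1.38 and 1.22) and the kinase gene SCH9 (1.25 and 1.32) rose too, as did CRF1 (1.26), RAP1 (0.75) and TOR1 (3.01 and 1.94). IFH1, a coactivator gene of ribosomal protein genes, was at -1.50 and -0.78 and fell, and HMO1 fell with a mean of -0.99. FHL1 was at -0.23 and did not pass. With the trend on length removed, TOR1 (0.15), RAP1 (0.04) and HMO1 (-0.51) no longer passed and FHL1 passed as lower (-1.14), while DOT6 (1.22), CRF1 (1.31), SFP1 (0.88) and SCH9 (0.58, adjusted p = 0.0389) still passed as higher and IFH1 (-2.27) as lower. None of the 9 measured on the mutant arrays was called in reg1 over wild type, and none of them had an unadjusted p under 0.05. Of these regulators, those other than TOR1 and IFH1 were named after their values were seen. STB3 had 1 alkali value, 0.80, and TOD6 none on any array.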

How the data were processed

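The deposited table holds, for each array, log ratios that were read here as log2. The base is not stated and was inferred from the values. Per the labels, the authors dropped small spots and any with weak signal in both dyes. Their background correction and normalization: not given in the sources used here. Between 4746 and 5190 of 6212 rows had a value on an array. Signal over background is unknown, and the number of arrays limits the precision. The arrays correlated at r = 0.95 (alkali) and 0.59 (mutant).

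Symbols and lengths came from a table of assembly R64, by locus tag, which matched 5662 rows. Coordinates are omitted because no build is named. Mutant columns were read 2 rows further down from YKL011C. Rows YAL067C to YBR047W (199) and 80 rows within 20 of a change of register were left out of both comparisons. Each comparison's mean was tested against 0 with limma 3.58.1 (R 4.3.3), in a single fit of the 4 arrays with a common spread (2 residual degrees of freedom, 3.69 prior). The p-values were adjusted by Benjamini-Hochberg over all genes tested. The spreads were unequal, with a median SD between arrays of 0.13 (alkali) and 0.23 (mutant) over all genes, and 0.16 and 0.18 over the members. The common spread can thus be too wide for alkali ratios and too narrow for mutant ones. The fit was also run on simulated data in which all arrays had an equal spread, so that run did not test this inequality. The experiment number does not mark a shared culture in the labels, so the block was an alternative. Members, gene lists and tests were chosen with earlier results of these data known. Named members were the lowest and highest of each role, those called or not lower, and those whose arrays differed most. Alternatives were other centring and scaling, dye and block terms, separate fits, other row filters, arrays left out and, added after seeing the data, removal of a loess trend on length. Promoter and protein sequences were not used here.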

Additional observations from a re-analysis of the deposited data

How the results depend on the processing

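With 2 arrays per comparison, calls near the threshold moved with the fit. A count of members without a share of all genes beside it does not set the members apart, and neither does its stability across fits. After KOH the number of members called lower stayed within 1.5 times of 34 under every alternative run (29 to 35, or 38 of 44 when genes with 1 alkali value, which have no spread of their own there, are added), and their median was -1.73 after centring, -1.27 after scaling to the same spread, -1.76 with the register as deposited, -1.84 with the trend on length removed, and -1.81 to -1.78 with 1 array left out. Members called higher numbered 0 after scaling and 2 with a dye term, with the experiment number as a replicate block or with the alkali arrays alone, and 0 to 2 with 1 array left out. BMS1 turned to 0.02 after centring, 0.0112 after scaling, and ranged from -0.23 to 0.11 with 1 alkali array left out. With the trend on length removed, PWP2 turned to -0.37 and IMP3 to 0.21, and PWP2 read from its synonym rows was at -1.99 and -1.08.

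In reg1 over wild type, members called lower numbered 2 after scaling (against 3.66% of all genes), 4 with a dye term (7.29%) and 1 with the replicate block (2.64%). Those called higher numbered 1 with a dye term (against 9.51%) and 1 with the register as deposited (5.89%). The latter was UTP14, which has no value at the corrected position. UTP23 turned to 0.29 with the register as deposited, NOP1 ranged from -0.015 to 1.335 and UTP9 from -0.769 to 0.026 with 1 mutant array left out. The difference between comparisons gave 7 members lower after scaling and 15 to 31 with 1 array left out, where 0 to 1 were higher. No share of all genes is given for these counts of the difference, so they do not set the members apart. Apart from shifts set by construction (fewer arrays, shrunken ratios), the cause was not tested.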
